A study of Mus musculus with 8 samples.

Results

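The genes described here are the subunits of the Polycomb repressive complexes 1 and 2 (PRC1 and PRC2), 35 of the 46078 gene IDs counted in the series. They were chosen by name, as known subunits of either complex, and the rule uses no measured value. All 35 were found in the count tables with GENCODE M21 names, and all 35 passed the filter on low counts. RNA-sequencing of poly-A RNA was available for 8 libraries of male mouse cells of the C57BL/6 strain, in 4 groups of 2 libraries. tcESCs are embryonic stem cells (ESCs) of genotype XY;tesco-cfp, in which a testis enhancer of Sox9 drives CFP, and they were grown in 2iLIF medium. tc;Sf1ESCs are XY;tesco-cfp;Sf1 cells, a single clone of tcESCs that was selected for a constitutive mouse Sf1 transgene (the gene Nr5a1). SCLCs (Sertoli cell-like cells) have the same XY;tesco-cfp;Sf1 genotype and are the CFP-positive cells sorted on day 12 from a mixed culture of testicular somatic cell-like cells, so that every SCLC library descends from that 1 clone. todPGCLCs are primordial germ cell-like cells of genotype XY;Prdm1-gfp, sorted from testicular organoids on day 6. They come from another ESC line, whose own ESC libraries were not analysed here, so the line and the cell state cannot be told apart in any comparison with todPGCLCs.

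Polycomb complexes keep genes silent by marking chromatin. PRC2 methylates histone H3 to give H3K27me3, and PRC1 ubiquitinates histone H2A and compacts chromatin. Each complex is assembled from a fixed core and from families of related subunits that exclude one another, so that the paralogue a cell expresses sets which form of the complex it can build. In ESCs these complexes are known for holding developmental regulators silent, and a variant of PRC1 is known for silencing germline genes.

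Gene counts summed to between 25411033 and 30680191 per library, at which 3 counts equal 0.0978 to 0.118 counts per 1e6 (CPM). Levels below are CPM after TMM normalization over the 8 libraries, and they cannot be compared between genes of different length unless CPM per kb is stated. The libraries of each group differed by more than sampling noise, and the chi-square of their counts over its degrees of freedom ran from 1.44 in tc;Sf1ESCs to 30.6 in SCLCs. Nr5a1 stood at 0.0394 and 0 CPM in tcESCs and at 2.02 and 1.1 CPM in tc;Sf1ESCs. In SCLCs the summed level of 7 Sertoli cell markers was 493 and 490.3 CPM against 16.4 and 18.7 CPM in tcESCs, of which Gata4 supplied 432 and 451 CPM. Sox9 (8.08 and 4.67 against 0.0789 and 0.260 CPM) and Nr5a1 (13.4 and 19.2 CPM) were above tcESCs, as was Wt1 (2.35 and 0.826 against 0.592 and 0.618 CPM). The libraries of Dmrt1 overlapped (37.1 and 13.9 against 13.1 and 14.6 CPM). Amh (0.392 and 0.790 CPM) and Dhh (0.196 and 0.0359 CPM), also among these markers, were at levels like those in tcESCs (0.592 and 0.585 CPM, and 0.197 and 0.228 CPM). The Sertoli sum in todPGCLCs was 113 and 138 CPM, of which Dmrt1 supplied 94.9 and 116 CPM. The summed level of 7 visceral endoderm markers was 1592 and 3063 CPM in SCLCs and at most 15.7 CPM in every other library. The sum of 7 ESC markers was 855 and 663 CPM in SCLCs against 3950.1 and 4025 CPM in tcESCs. The sum of 7 germ cell markers was 759 and 740.2 CPM in todPGCLCs against 341 and 365 CPM in tcESCs. Of these markers Prdm1, Tfap2c, Dppa3, Ddx4 and Nanos3 were above both tcESC libraries in both todPGCLC libraries, Prdm14 was below them (48.4 and 42.9 against 61.8 and 61.6 CPM), and the libraries of Dazl overlapped (184.8 and 99.3 against 171.8 and 191 CPM). The part of these cell mixtures in the values below was not tested, and in bulk libraries fewer cells expressing a gene cannot be told apart from less RNA per cell.

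In SCLCs, Pcgf5, Ezh1, Cbx8, Yaf2, Rbbp7 and Ring1 were higher than in tcESCs and 11 members were lower. In todPGCLCs against tcESCs, Phf19 had the largest fold change of the members. A gene was called with a fold change above 2 and an adjusted p under 0.05 in the quasi-likelihood test of edgeR, where p-values were adjusted by Benjamini-Hochberg over every gene in the fit. Every adjusted p below comes from edgeR in this way. In SCLCs against tcESCs, 6 members were called higher and 11 lower of 35, where 42.7% of all 16481 genes tested were called (24.3% higher and 18.3% lower). In SCLCs against tc;Sf1ESCs 5 members were higher and 6 lower, where 42.2% of all genes were called (24.1% higher and 18.1% lower). In todPGCLCs against tcESCs 5 were higher and 3 lower, where 29.4% of 16707 genes were called (18.1% higher and 11.2% lower), and in SCLCs against todPGCLCs 4 were higher and 8 lower, where 38% were called (19.5% higher and 18.5% lower). In tc;Sf1ESCs against tcESCs, 1 member was lower and none was higher by edgeR or DESeq2 (8 were higher at an unadjusted p under 0.05 and any fold), where 11.7% of all genes were called, 6.04% higher. The called share of members was thus 48.6% in SCLCs against tcESCs (17.1% higher and 31.4% lower), 31.4% in SCLCs against tc;Sf1ESCs, 22.9% in todPGCLCs against tcESCs, 34.3% in SCLCs against todPGCLCs and 2.86% in tc;Sf1ESCs against tcESCs. It was above the share of all genes in the comparison of SCLCs with tcESCs and below it in the other 4, and these differences from all genes were not tested. Of 8 paralogue families, 3 held both a member called higher and a member called lower in SCLCs against tcESCs (Ezh1 and Ezh2, Cbx8 and Cbx2, Yaf2 and Rybp). Against tc;Sf1ESCs, the parent clone of SCLCs, 1 family did (Phf19 and Mtf2), because Ezh2, Cbx8 and Rybp were not called there. Between SCLCs and todPGCLCs 2 families did (Bmi1 and Pcgf5 higher in SCLCs and Pcgf2 lower, and Cbx8 higher and Cbx2 lower). Of the 8, 0 did in todPGCLCs or in tc;Sf1ESCs against tcESCs. At an adjusted p under 0.05 and any fold, 32 members passed in SCLCs against tcESCs (72.9% of all genes), 32 in SCLCs against tc;Sf1ESCs (72.6%), 26 in SCLCs against todPGCLCs (69.7%), 27 in todPGCLCs against tcESCs (62% of all genes) and 15 in tc;Sf1ESCs against tcESCs (32.7% of all genes). The comparisons of SCLCs and of todPGCLCs with tcESCs share the tcESC libraries, so their values are set side by side and not combined.

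**Figure D1:**
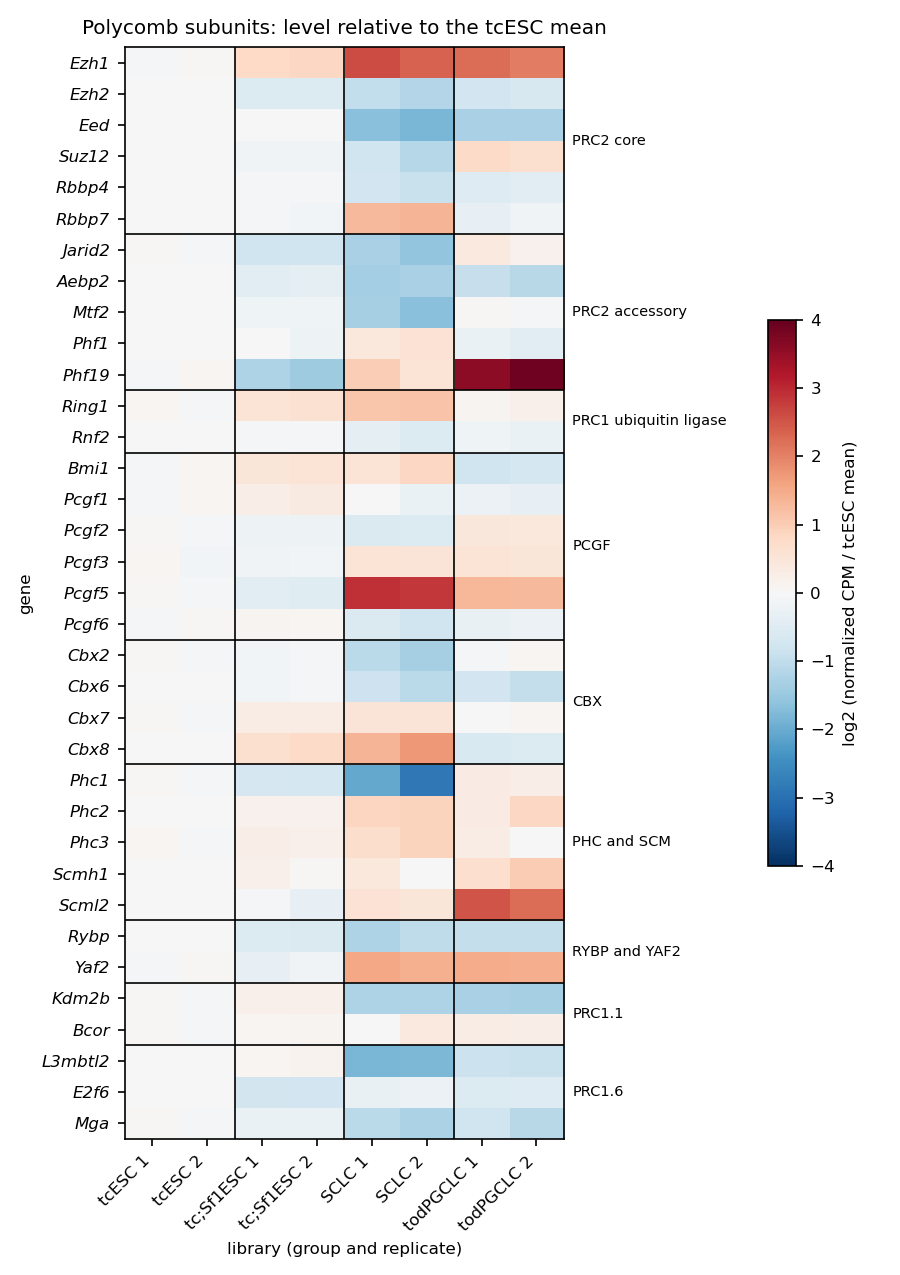
Colour shows log2 of the normalized CPM of each library over the tcESC mean of that gene, for the 35 subunits (rows, grouped by role) in the 8 libraries (columns). Ezh1 and Pcgf5 are red in the SCLC and todPGCLC libraries, Phf19 is darkest in the todPGCLC libraries, and Phc1 and L3mbtl2 are blue in the SCLC libraries.

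Of the 6 genes of the PRC2 core, SCLCs held more Ezh1 and Rbbp7 and less Ezh2 and Eed than tcESCs, while Suz12 and Rbbp4 were not called. Ezh1 (chr11:101191115-101226463 on GRCm38), the methyltransferase typical of non-dividing cells, had 29.1 and 31.7 CPM in tcESCs, 53.0 and 53.6 in tc;Sf1ESCs, 186 and 155 in SCLCs and 144 and 125 in todPGCLCs. The 4 ESC libraries are all below the SCLC and todPGCLC libraries, with tc;Sf1ESCs between tcESCs and the rest. Ezh1 was 5.62-fold higher in SCLCs than in tcESCs (log2 fold change 2.49, SE 0.105, adjusted p = 1.41e-06) and 3.22-fold higher than in tc;Sf1ESCs (log2 fold change 1.69, SE 0.101, adjusted p = 6.76e-06). In todPGCLCs it was 4.41-fold higher than in tcESCs (log2 fold change 2.14, SE 0.109, adjusted p = 1.24e-06). SCLCs and todPGCLCs differed by a log2 fold change of 0.35 (adjusted p = 0.0141), under the fold limit.

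Ezh2, the methyltransferase typical of dividing cells, stood at 310.5 and 315 CPM in tcESCs, 215 and 213 in tc;Sf1ESCs, 157 and 138 in SCLCs and 185 and 200.3 in todPGCLCs. Its order was the reverse of that of Ezh1, highest in tcESCs and lowest in SCLCs, with no overlap between neighbouring groups. Ezh2 fell 2.11-fold in SCLCs against tcESCs (log2 fold change -1.08, SE 0.0748, adjusted p = 1.33e-05), and the log2 fold change was -0.70 in todPGCLCs against tcESCs, under the fold limit. Against tc;Sf1ESCs, the parent clone of SCLCs, it was -0.53 (adjusted p = 4.90e-04) in SCLCs, not called. The tested genes of chromosome 6, which holds Ezh2, had a median log2 fold change of -0.30 in SCLCs against tcESCs and -0.29 in todPGCLCs against tcESCs. Relative to that median the Ezh2 difference in SCLCs was -0.78, and without SCLC replicate 2 it was -0.99, and in both cases it was not called. Nor did it pass a test against a 2-fold change (adjusted p = 0.159 by edgeR).

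The windows before the RefSeq starts of Ezh1 and Ezh2 are shown because these paralogues were called in opposite directions in SCLCs against tcESCs. They are the stretch of the RefSeq promoter entry (GRCm38.p6, 250 bases before the start) that holds no exon of a protein-coding gene in GENCODE M21, read 5′ to 3′ on the minus strand. That of Ezh1 lies at chr11:101226464-101226713 with 14 CpG in 250 bases, and that of Ezh2 at chr6:47595059-47595183 with 11 CpG in 125 bases. The RefSeq start of Ezh1 (101226463) is also its outermost start in GENCODE M21, whereas that of Ezh2 (47595030) lies 311 bases downstream of the outermost GENCODE start (47595341), so the Ezh2 window lies within the GENCODE gene, in an intron of the transcript that begins there. Neither 250-base window holds the E2F letters TTTNGCGC or TTTCCCGC or the E2F6 letters GGCGGGAA on either strand, so no base is in capitals.
Ezh1: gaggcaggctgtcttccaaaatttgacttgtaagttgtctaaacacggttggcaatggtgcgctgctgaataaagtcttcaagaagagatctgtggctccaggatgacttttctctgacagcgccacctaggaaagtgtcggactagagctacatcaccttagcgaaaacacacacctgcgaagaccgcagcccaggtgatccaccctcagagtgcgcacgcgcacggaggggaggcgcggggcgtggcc
Ezh2: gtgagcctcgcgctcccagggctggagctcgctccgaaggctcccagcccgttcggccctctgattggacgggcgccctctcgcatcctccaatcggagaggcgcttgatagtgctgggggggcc

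Eed (chr7:89954654-89980983 on GRCm38), the subunit that reads H3K27me3 and activates the enzyme, had 294 and 304 CPM in tcESCs, 293 and 294 in tc;Sf1ESCs, 93.1 and 83.3 in SCLCs and 122 and 121 in todPGCLCs. The ESC groups overlap, and every SCLC and todPGCLC library is far below them. It fell 3.38-fold in SCLCs against tcESCs (log2 fold change -1.76, SE 0.073, adjusted p = 1.33e-06), 3.32-fold against tc;Sf1ESCs (log2 fold change -1.73, SE 0.073, adjusted p = 1.46e-06) and 2.46-fold in todPGCLCs against tcESCs (log2 fold change -1.30, SE 0.069, adjusted p = 1.49e-06). Suz12, the scaffold of the core, had 632 and 635 CPM in tcESCs, 578 and 576 in tc;Sf1ESCs, 362 and 285 in SCLCs and 1077 and 987 in todPGCLCs. The todPGCLC libraries are the highest and the SCLC libraries the lowest for Suz12, so its difference lies between the derived cell types. It was 3.19-fold lower in SCLCs than in todPGCLCs (log2 fold change -1.67, SE 0.108, adjusted p = 2.05e-06). Against tcESCs the log2 fold changes were -0.97 in SCLCs and 0.70 in todPGCLCs, and the SCLC value passed the fold limit without SCLC replicate 1 (-1.14), with library totals alone (-1.03), with the filterByExpr filter (-1.0) or in a fit of the 4 libraries compared (-1.02). Against tc;Sf1ESCs it was -0.83, and it passed without SCLC replicate 1 (-1.0). On chromosome 11, which holds Suz12 and Ezh1, the median log2 fold change of all tested genes was 0.52 in todPGCLCs against tcESCs and -0.53 in SCLCs against todPGCLCs. Relative to these medians the Suz12 difference was 0.19 in todPGCLCs against tcESCs and -1.14 in SCLCs against todPGCLCs, which remained called, and that of Ezh1 in todPGCLCs against tcESCs was 1.62.

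Rbbp7 and Rbbp4 encode histone-binding proteins that PRC2 shares with other chromatin complexes. Rbbp7 (chrX:162760402-162779092) stood at 405 and 413 CPM in tcESCs, 389.8 and 381 in tc;Sf1ESCs, 1004 and 1056 in SCLCs and 324 and 371 in todPGCLCs. Both SCLC libraries are above 1000 CPM, and the highest of the other 6 libraries has 413. It rose 2.52-fold in SCLCs against tcESCs (log2 fold change 1.34, SE 0.0608, adjusted p = 1.96e-06) and 2.68-fold against tc;Sf1ESCs (log2 fold change 1.42, SE 0.0609, adjusted p = 1.52e-06). It was 2.96-fold higher in SCLCs than in todPGCLCs (log2 fold change 1.57, SE 0.0775, adjusted p = 5.28e-07). The X chromosome, where Rbbp7 lies, had a median log2 fold change of 0.17 in SCLCs against tcESCs. Rbbp4 had 521 and 543 CPM in tcESCs, 515 and 507 in tc;Sf1ESCs, 314 and 287 in SCLCs and 373 and 393 in todPGCLCs, lower in SCLCs than in the ESC libraries but with a log2 fold change of -0.82 (adjusted p = 3.21e-05), and it was called in no comparison. In the same SCLC libraries 7 of 15 cell division genes were lower than in tcESCs and none was higher by edgeR or DESeq2 (2 were higher at an unadjusted p under 0.05 and any fold), and their summed level was 3774 and 3296 CPM against 5880.1 and 5837 CPM. In todPGCLCs against tcESCs none of the 15 was called by edgeR or DESeq2 (2 were higher and 9 lower at an unadjusted p under 0.05 and any fold), and the sum was 5214 and 5283 CPM. The part of cell division in the PRC2 values was not tested.

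**Figure D2:**
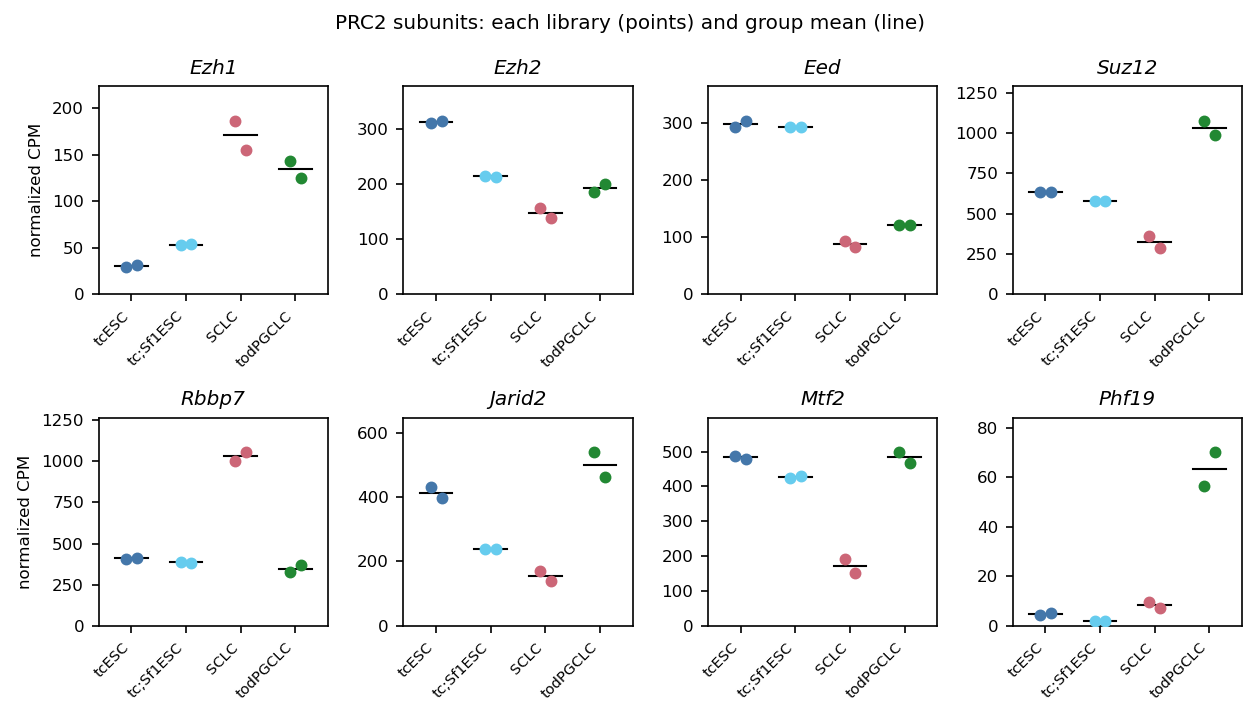
Normalized CPM (vertical axes, starting at 0) of 8 PRC2 genes in the 4 groups, with a point for each of the 2 libraries and a line at their mean. Ezh1 runs from 29.1 to 186 CPM and is highest in SCLCs, Rbbp7 is above 1000 CPM only in the SCLC libraries, and Phf19 is above 50 CPM only in the todPGCLC libraries.

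Accessory subunits sort PRC2 into a form with JARID2 and AEBP2 and a form with one of the Polycomb-like proteins MTF2, PHF1 and PHF19, which bind DNA at CpG islands. In SCLCs, Jarid2, Aebp2 and Mtf2 fell against tcESCs, and Phf1 and Phf19 were not called. Jarid2 had 433 and 396 CPM in tcESCs, 238 and 240.2 in tc;Sf1ESCs, 169 and 139 in SCLCs and 540.2 and 462 in todPGCLCs. Both todPGCLC libraries are above the tcESC libraries, and the SCLC libraries are the lowest. It fell 2.68-fold in SCLCs against tcESCs (log2 fold change -1.42, SE 0.101, adjusted p = 1.49e-05) and was 3.26-fold lower in SCLCs than in todPGCLCs (log2 fold change -1.70, SE 0.11, adjusted p = 2.11e-06). Against the parent tc;Sf1ESCs the Jarid2 difference in SCLCs was -0.63 (adjusted p = 9.13e-04), not called. Mtf2, at 487 and 479 CPM in tcESCs, 425 and 429 in tc;Sf1ESCs, 191 and 151 in SCLCs and 498 and 468 in todPGCLCs, was likewise lowest in SCLCs, and its tcESC and todPGCLC libraries overlap. Mtf2 was 2.81-fold lower in SCLCs than in tcESCs (log2 fold change -1.49, SE 0.108, adjusted p = 1.67e-05), 2.48-fold lower than in tc;Sf1ESCs (log2 fold change -1.31, SE 0.108, adjusted p = 3.10e-05) and 2.82-fold lower than in todPGCLCs (log2 fold change -1.50, SE 0.103, adjusted p = 2.97e-06), while todPGCLCs and tcESCs differed by 0.00 with an SE of 0.1. Aebp2 stood at 265 and 259 CPM in tcESCs, 197 and 201 in tc;Sf1ESCs, 103 and 107 in SCLCs and 138 and 120.4 in todPGCLCs. It was lower in both derived cell types, 2.49-fold in SCLCs (log2 fold change -1.32, SE 0.0583, adjusted p = 1.74e-06) and 2.02-fold in todPGCLCs (log2 fold change -1.02, SE 0.0757, adjusted p = 9.09e-06). Against tc;Sf1ESCs the SCLC value of Aebp2 was -0.92 (adjusted p = 8.67e-06), not called. The todPGCLC call for Aebp2 sat at the limit: it was not called without todPGCLC replicate 2 (-0.91), with library totals alone (-0.94) or relative to the chromosome 6 median (-0.72), nor in a test against a 2-fold change (adjusted p = 0.663 by edgeR).

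Phf19 was the member with the largest difference in todPGCLCs. The gene (chr2:34893757-34914026) had 4.42 and 4.97 CPM in tcESCs, 1.98 and 1.76 in tc;Sf1ESCs, 9.37 and 6.93 in SCLCs and 56.6 and 70.1 in todPGCLCs. All 6 libraries of the other groups are below 10 CPM, and the todPGCLC libraries are above 50. It rose 13.4-fold in todPGCLCs against tcESCs (log2 fold change 3.75, SE 0.18, adjusted p = 9.08e-07) and was 7.78-fold lower in SCLCs than in todPGCLCs (log2 fold change -2.96, SE 0.171, adjusted p = 1.14e-06). SCLCs held 4.37-fold more Phf19 than tc;Sf1ESCs (log2 fold change 2.13, SE 0.224, adjusted p = 1.09e-04), and against tcESCs the log2 fold change was 0.80 (adjusted p = 0.00978), under the fold limit. Phf1, another Polycomb-like gene, stayed between 14.3 and 29.5 CPM in every library and was called in no comparison. Of its exon bases 39.3% overlap Cuta on the opposite strand, and the strand setting of the counting is not given in the sources used here.

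The promoter windows of Suz12 and Phf19, the PRC2 genes that were higher in todPGCLCs than in SCLCs by over 3-fold and whose windows hold an E2F motif, are shown with that motif in capitals. Jarid2, 3.26-fold higher in todPGCLCs than in SCLCs, had no match to the E2F or E2F6 letters. The windows shown were chosen for the motif, so they cannot link it to the RNA levels. Suz12 lies on the plus strand (chr11:79992856-79993105, 250 bases, 37 CpG) and Phf19 on the minus strand (chr2:34914027-34914226, 200 bases, 25 CpG), and both are read 5′ to 3′ as transcribed, from RefSeq on GRCm38.p6 and cut to bases with no protein-coding exon in GENCODE M21. The letters TTTCCCGC begin 219 bases before the start of Suz12 as printed. In Phf19 they occur on the opposite strand, 208 bases before the RefSeq start (34913976) and 158 bases before the outermost GENCODE start (34914026).
Suz12: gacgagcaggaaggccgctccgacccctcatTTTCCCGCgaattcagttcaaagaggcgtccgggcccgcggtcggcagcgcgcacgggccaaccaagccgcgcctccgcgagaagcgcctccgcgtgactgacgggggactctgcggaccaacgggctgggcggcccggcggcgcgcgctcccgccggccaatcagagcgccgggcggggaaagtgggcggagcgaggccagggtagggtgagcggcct
Phf19: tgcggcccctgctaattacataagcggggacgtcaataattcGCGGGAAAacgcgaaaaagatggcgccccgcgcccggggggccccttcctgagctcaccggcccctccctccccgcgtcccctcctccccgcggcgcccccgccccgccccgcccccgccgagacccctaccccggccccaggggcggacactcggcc
These letters occur on either strand in 0.895% of 32851 RefSeq promoters of the same length, and among the 31 members with an entry they were found in Suz12 and Phf19. GGCGGGAA, the E2F6 letters, were found in Pcgf5 and Scmh1 (1.86% of all promoters), and the E-box letters CACGTG in Bmi1, Cbx6, Cbx8, Pcgf2, Phc2, Phc3 and Rbbp4 (6.02% of all promoters). Of the other letters searched on both strands, the NRF1 motif (0.782% of all promoters) was found in Phc3 and TGACGTCA (CREB, 1.55%) in Cbx8, while TTTNGCGC (E2F, 1.13%), the YY1 motif (0.207%) and CCGGAAGT (ETS, 2.88%) were found in no member. These matches describe letters only, and binding was not measured.

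PRC1 is built around the ubiquitin ligases RING1 and RNF2. Rnf2 stayed between 111 and 164 CPM in all 8 libraries and was called in no comparison. Ring1 was low, at 9.94 and 8.84 CPM in tcESCs, 13.8 and 14.5 in tc;Sf1ESCs, 20.1 and 20.7 in SCLCs and 10.2 and 10.7 in todPGCLCs, and both SCLC libraries are above all others. It rose 2.18-fold in SCLCs against tcESCs (log2 fold change 1.12, SE 0.116, adjusted p = 9.68e-05), a call that a test against a 2-fold change did not keep (adjusted p = 0.149 by edgeR). Against tc;Sf1ESCs the SCLC value of Ring1 was 0.54 (adjusted p = 0.00382), not called. In todPGCLCs Ring1 stood between tcESCs and tc;Sf1ESCs, with a log2 fold change of 0.16 (adjusted p = 0.287).

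Each form of PRC1 carries 1 of 6 PCGF proteins, and of these Pcgf5 had the largest difference of all members in SCLCs against tcESCs and against tc;Sf1ESCs. Against todPGCLCs, Phf19 (-2.96), Phc1 (-2.68), Cbx8 (2.15), Scml2 (-1.85), Jarid2 (-1.70) and Suz12 (-1.67) had log2 fold changes larger in size than Pcgf5. Pcgf5 (chr19:36348309-36460970), which with Pcgf3 marks variant complexes of wide H2A ubiquitination, had 11.3 and 10.4 CPM in tcESCs, 7.97 and 7.69 in tc;Sf1ESCs, 82.2 and 77.6 in SCLCs and 27 and 26.4 in todPGCLCs. The groups are in a clear order, with tc;Sf1ESCs lowest, then tcESCs, todPGCLCs and SCLCs, and no libraries overlap between them. It rose 7.39-fold in SCLCs against tcESCs (log2 fold change 2.89, SE 0.0907, adjusted p = 4.65e-07), 10.2-fold against tc;Sf1ESCs (log2 fold change 3.36, SE 0.0939, adjusted p = 3.24e-07) and 2.46-fold in todPGCLCs against tcESCs (log2 fold change 1.30, SE 0.0903, adjusted p = 6.23e-06). SCLCs also exceeded todPGCLCs, by 2.99-fold (log2 fold change 1.58, SE 0.0852, adjusted p = 8.11e-07).

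Bmi1 and Pcgf2 encode the PCGF proteins of canonical PRC1, and they differed in opposite directions between the derived cell types. Bmi1 had 31.6 and 35.6 CPM in tcESCs, 47.0 and 49.2 in tc;Sf1ESCs, 48.9 and 59.6 in SCLCs and 19.5 and 20.8 in todPGCLCs. It was lowest in todPGCLCs, and SCLC and tc;Sf1ESC libraries overlap. SCLCs were 2.69-fold higher than todPGCLCs (log2 fold change 1.43, SE 0.114, adjusted p = 7.15e-06). Pcgf2 had 117 and 111 CPM in tcESCs, 99.1 and 98.2 in tc;Sf1ESCs, 76.1 and 77.6 in SCLCs and 156 and 154 in todPGCLCs, with the todPGCLC libraries highest. It was 2.02-fold lower in SCLCs than in todPGCLCs (log2 fold change -1.01, SE 0.0609, adjusted p = 1.43e-06), and this call was lost without SCLC replicate 1 (-0.99) and relative to the chromosome 11 median (-0.48), and in a test against a 2-fold change (adjusted p = 0.528 by edgeR). Pcgf3 (82.5 to 133 CPM), Pcgf1 of the PRC1.1 complex (10.5 to 17.0 CPM) and Pcgf6 of the PRC1.6 complex (57.8 to 109.8 CPM) were called in no comparison.

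CBX proteins carry the chromodomain with which canonical PRC1 reads H3K27me3. Cbx7, the main CBX gene of ESCs, stayed between 214 and 315 CPM and was called in no comparison, and neither was Cbx6 (53.6 to 114 CPM), whose log2 fold change in SCLCs against tcESCs was -0.94, or -1.07 and past the limit without SCLC replicate 1. Cbx2 and Cbx8, which are neighbours on chromosome 11, differed in opposite directions in SCLCs. Cbx2 had 59.9 and 57.3 CPM in tcESCs, 53.8 and 55.2 in tc;Sf1ESCs, 27.7 and 23.5 in SCLCs and 56.4 and 62.4 in todPGCLCs. It fell 2.29-fold in SCLCs against tcESCs (log2 fold change -1.19, SE 0.0952, adjusted p = 2.69e-05) and 2.12-fold against tc;Sf1ESCs (log2 fold change -1.09, SE 0.0953, adjusted p = 4.32e-05), the latter not called without SCLC replicate 2 (-0.97) or in a test against a 2-fold change (adjusted p = 0.190 by edgeR). Against todPGCLCs Cbx2 was 2.32-fold lower (log2 fold change -1.22, SE 0.0976, adjusted p = 7.33e-06), and -0.69 relative to the chromosome 11 median, which is under the fold limit.

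Cbx8 was low in every group, with 4.50 and 4.42 CPM in tcESCs, 6.88 and 7.54 in tc;Sf1ESCs, 11.4 and 15.0 in SCLCs and 2.90 and 3.04 in todPGCLCs. The order is todPGCLCs, tcESCs, tc;Sf1ESCs and SCLCs from low to high, without overlap. It was 2.97-fold higher in SCLCs than in tcESCs (log2 fold change 1.57, SE 0.176, adjusted p = 1.51e-04) and 4.45-fold higher than in todPGCLCs (log2 fold change 2.15, SE 0.184, adjusted p = 1.06e-05). Against tc;Sf1ESCs it was 0.88 on the log2 scale, under the fold limit, and 1.07 without SCLC replicate 1. In todPGCLCs against tcESCs Cbx8 had a log2 fold change of -0.59 (adjusted p = 0.0247), and relative to the rise of chromosome 11 the value was -1.10, past the fold limit.

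The PHC proteins join PRC1 complexes through their SAM domains, and SCMH1 and SCML2 are SAM proteins that associate with them. Phc1 fell the most of all members in SCLCs against tcESCs. The gene (chr6:122317731-122340561) stood at 496 and 472 CPM in tcESCs, 301 and 297 in tc;Sf1ESCs, 118 and 66.2 in SCLCs and 605 and 579.8 in todPGCLCs. The SCLC libraries are below all others but also differ from each other more than those of any other group. The difference was 5.24-fold against tcESCs (log2 fold change -2.39, SE 0.238, adjusted p = 8.14e-05), 3.23-fold against tc;Sf1ESCs (log2 fold change -1.69, SE 0.233, adjusted p = 4.40e-04) and 6.43-fold against todPGCLCs (log2 fold change -2.68, SE 0.218, adjusted p = 7.94e-06). Phc1 lies on chromosome 6, and relative to its median the value against tcESCs was -2.09. The SCLC library with the lower Phc1 is also the one with less Nanog (22.2 against 72.1 CPM) and a higher visceral endoderm sum, and the part of this mixture in the Phc1 level was not tested.

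Phc2 (38.5 to 72.8 CPM over all libraries) and Phc3 (34.6 to 67.6 CPM) were called in no comparison. In SCLCs against tcESCs their log2 fold changes were 0.89 (adjusted p = 1.87e-05) and 0.80 (adjusted p = 2.19e-04), both under the fold limit. Scml2, an X-linked gene known for its role in the male germline, had 3.83 and 3.93 CPM in tcESCs, 3.73 and 3.11 in tc;Sf1ESCs, 5.84 and 5.46 in SCLCs and 22.4 and 18.4 in todPGCLCs. Only the todPGCLC libraries are above 6 CPM. It rose 5.26-fold in todPGCLCs against tcESCs (log2 fold change 2.39, SE 0.168, adjusted p = 6.50e-06) and was 3.61-fold lower in SCLCs than in todPGCLCs (log2 fold change -1.85, SE 0.163, adjusted p = 1.26e-05). The X chromosome had a median log2 fold change of 0.25 in todPGCLCs against tcESCs, and relative to it Scml2 stood at 2.14. Scmh1 had 29.7 to 61.0 CPM over all libraries and was called in no comparison, although without todPGCLC replicate 1 it passed the limit in todPGCLCs against tcESCs (1.02).

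RYBP and its paralogue YAF2 take the place of CBX proteins in variant PRC1. Rybp had 126 and 126 CPM in tcESCs, 85.4 and 84.6 in tc;Sf1ESCs, 53.9 and 62 in SCLCs and 64.7 and 64.3 in todPGCLCs. It was highest in tcESCs, and the SCLC and todPGCLC libraries lie close together. It fell 2.17-fold in SCLCs against tcESCs (log2 fold change -1.11, SE 0.0791, adjusted p = 1.49e-05), and the log2 fold change in todPGCLCs against tcESCs was -0.96 (adjusted p = 1.29e-05). Against tc;Sf1ESCs the SCLC value of Rybp was -0.55 (adjusted p = 5.64e-04), not called. The call against tcESCs did not hold relative to the chromosome 6 median (-0.82) or in a test against a 2-fold change (adjusted p = 0.0850 by edgeR), and in todPGCLCs the value passed the fold limit without tcESC replicate 1 or 2 (-1.01 in each case). Yaf2, in contrast, had 8.76 and 9.36 CPM in tcESCs, 7.15 and 8.20 in tc;Sf1ESCs, 26.7 and 24.3 in SCLCs and 25.3 and 24.9 in todPGCLCs. The lowest library of the derived cells has 24.3 CPM and the highest ESC library 9.36. The gene rose 2.82-fold in SCLCs against tcESCs (log2 fold change 1.49, SE 0.127, adjusted p = 3.64e-05), 3.33-fold against tc;Sf1ESCs (log2 fold change 1.74, SE 0.129, adjusted p = 1.89e-05) and 2.77-fold in todPGCLCs against tcESCs (log2 fold change 1.47, SE 0.118, adjusted p = 1.34e-05). Between SCLCs and todPGCLCs the log2 fold change of Yaf2 was 0.02 with an SE of 0.112.

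KDM2B brings the PRC1.1 complex to unmethylated CpG islands, and BCOR is a partner in that complex. Kdm2b had 149 and 141 CPM in tcESCs, 165 and 165 in tc;Sf1ESCs, 62.2 and 61.9 in SCLCs and 58.9 and 57.7 in todPGCLCs. The SCLC and todPGCLC libraries lie close together and well below both ESC groups. It fell 2.33-fold in SCLCs against tcESCs (log2 fold change -1.22, SE 0.0602, adjusted p = 2.85e-06), 2.65-fold against tc;Sf1ESCs (log2 fold change -1.41, SE 0.0604, adjusted p = 1.55e-06) and 2.49-fold in todPGCLCs against tcESCs (log2 fold change -1.31, SE 0.061, adjusted p = 7.89e-07). Bcor stayed between 67.9 and 92.7 CPM and was called in no comparison.

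L3MBTL2, E2F6 and MGA belong to PRC1.6, the complex known for silencing germline genes in ESCs. L3mbtl2 had 139 and 143 CPM in tcESCs, 149 and 157 in tc;Sf1ESCs, 39.7 and 40.3 in SCLCs and 77.1 and 76.4 in todPGCLCs. The todPGCLC libraries lie between the ESC libraries and the SCLC libraries. It fell 3.52-fold in SCLCs against tcESCs (log2 fold change -1.82, SE 0.0637, adjusted p = 7.05e-07) and 3.81-fold against tc;Sf1ESCs (log2 fold change -1.93, SE 0.0639, adjusted p = 6.07e-07), and in todPGCLCs against tcESCs the log2 fold change was -0.88 (adjusted p = 6.30e-06). Of its exon bases 17.2% overlap Chadl on the opposite strand. Mga, the DNA-binding subunit, had 596 and 552 CPM in tcESCs, 473 and 478 in tc;Sf1ESCs, 269 and 241 in SCLCs and 328 and 267 in todPGCLCs. It fell 2.24-fold in SCLCs against tcESCs (log2 fold change -1.17, SE 0.0771, adjusted p = 1.04e-05). Against tc;Sf1ESCs the SCLC value of Mga was -0.89 (adjusted p = 3.97e-05), not called. In todPGCLCs against tcESCs the value was -0.95 (adjusted p = 7.03e-05), and it passed the fold limit without tcESC replicate 2 (-1.05) or without todPGCLC replicate 1 (-1.09). E2f6 (28.9 to 49.5 CPM over all libraries) was called in no comparison, and in tc;Sf1ESCs against tcESCs its log2 fold change was -0.74 (adjusted p = 5.56e-04).

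**Figure D3:**
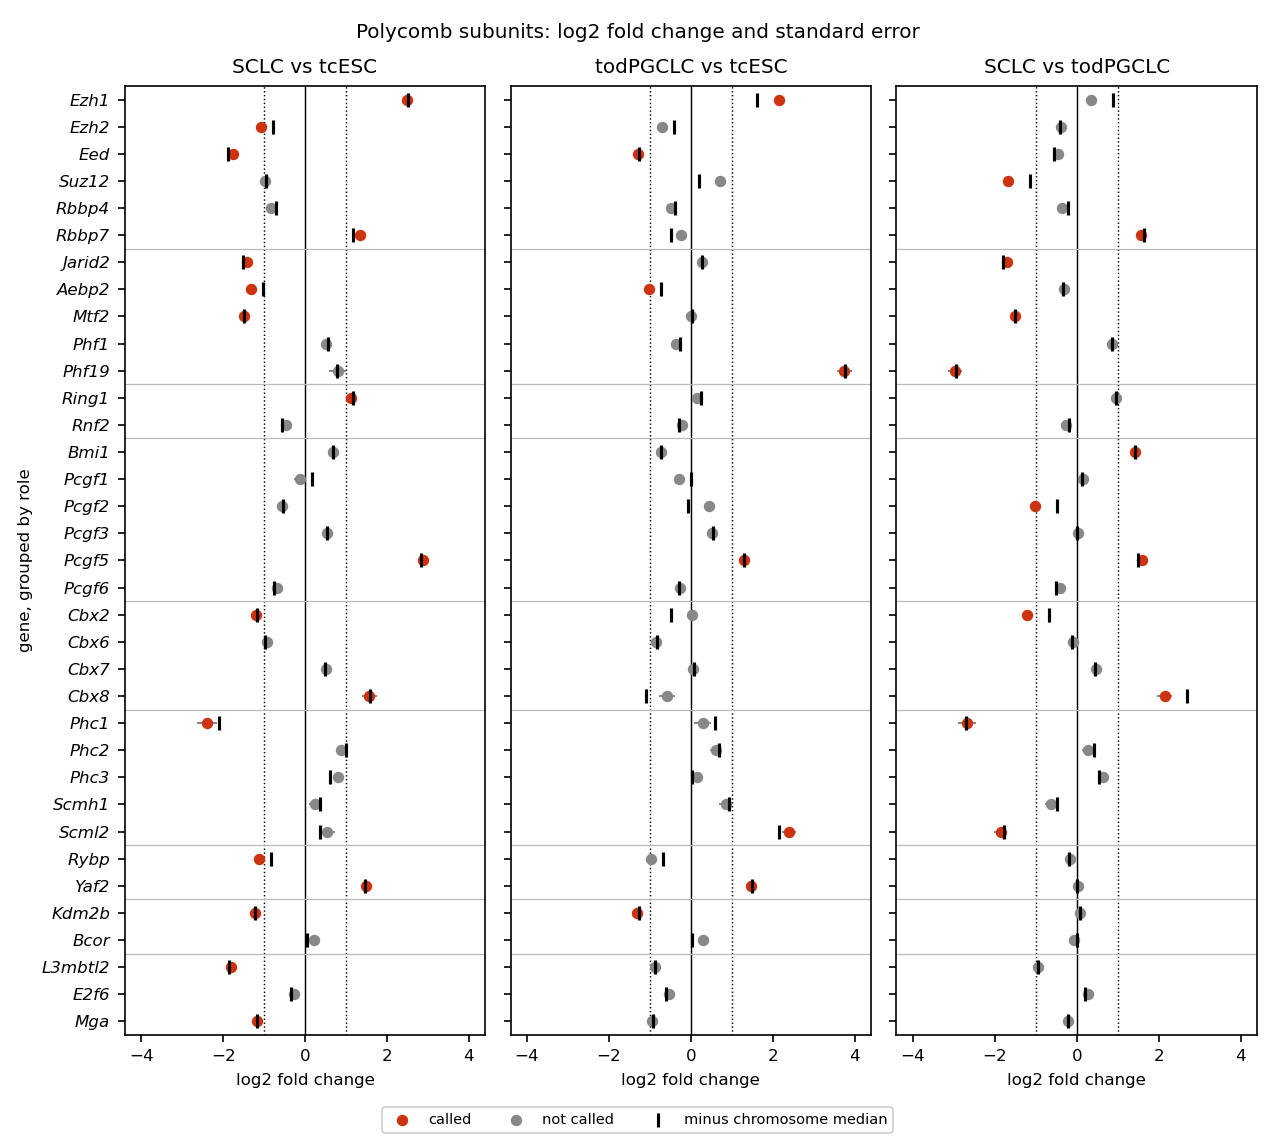
Log2 fold change with its standard error (horizontal axes) of the 35 subunits (rows, by role) in SCLC vs tcESC, todPGCLC vs tcESC and SCLC vs todPGCLC, red where called, with a bar where the value stands after the median of the same chromosome is taken off. Dotted lines mark the 2-fold limits. Ezh1 and Pcgf5 lie right of the limit in both comparisons with tcESCs, Eed, Aebp2 and Kdm2b lie left of it, and Phf19 lies furthest right in todPGCLC vs tcESC.

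The make-up of each family was compared within a library, with levels as CPM per kb of merged exons so that paralogues of different length can be set side by side. Ezh1 supplied 7.77% and 8.28% of the summed Ezh1 and Ezh2 level in tcESCs, 18.1% and 18.4% in tc;Sf1ESCs, 51.6% and 50.1% in SCLCs and 41.0% and 35.9% in todPGCLCs. The ratio of Ezh2 to Ezh1 went from 11.9 and 11.1 in tcESCs to 0.940 and 0.994 in SCLCs. The sum of the pair was 50.4 and 51.4 CPM per kb in tcESCs, 39.3 and 39.1 in tc;Sf1ESCs, 48.6 and 41.6 in SCLCs and 47.1 and 46.8 in todPGCLCs. With the longest transcript as the length, Ezh1 supplied on average 6.05% in tcESCs, 43.3% in SCLCs and 31.6% in todPGCLCs, in the same order but with Ezh2 still the larger share in SCLCs. These ratios describe RNA in 2 libraries a group and no test was run on them.

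Other families shifted in the same libraries. Yaf2 over Rybp was 0.176 and 0.188 in tcESCs, 1.25 and 0.991 in SCLCs and 0.990 and 0.980 in todPGCLCs, again per kb. Rbbp7 over Rbbp4 was 2.34 and 2.28 in tcESCs and 9.62 and 11.1 in SCLCs, with todPGCLCs at 2.61 and 2.84. Phc1 made up 92.3% of the 3 PHC genes in each tcESC library, 62.5% and 46.9% in SCLCs and 92.4% and 90.1% in todPGCLCs, while the PHC sum went from 101 and 96.5 CPM per kb in tcESCs to 35.7 and 26.7 in SCLCs. Among Polycomb-like genes, Phf19 was 0.953% and 1.09% of the sum in tcESCs and 10.9% and 13.9% in todPGCLCs. Pcgf5 reached 8.60% and 8.20% of the 6 PCGF genes in SCLCs from 1.13% and 1.04% in tcESCs. Cbx7 was the largest of the 4 CBX members in every library, at 57.2% and 56.6% in tcESCs and 75.4% and 76.8% in SCLCs.

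**Figure D4:**
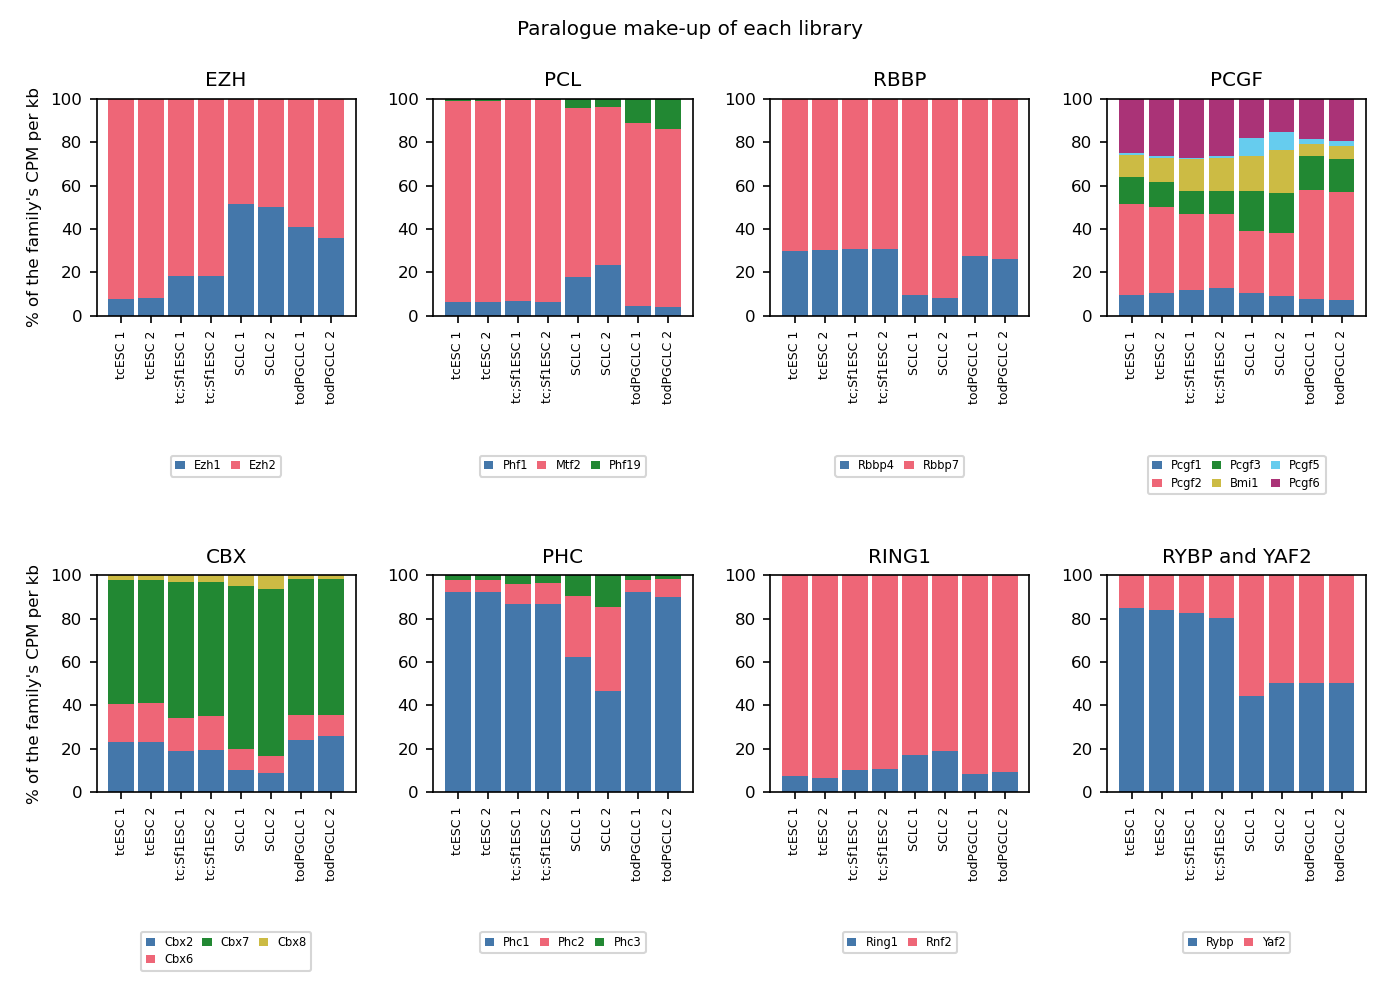
Each bar is 1 of the 8 libraries and shows the share of a family's summed CPM per kb of merged exons (percent, vertical axes) that each paralogue supplies. The Ezh1 share is 7.77% and 8.28% in tcESCs and 51.6% and 50.1% in SCLCs, the Phf19 share is largest in todPGCLCs, and the Phc1 share is smallest in SCLCs.

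In tc;Sf1ESCs against tcESCs Phf19 was the member called, 2.52-fold lower (log2 fold change -1.33, SE 0.228, adjusted p = 0.00481), and at 4.42 and 4.97 CPM against 1.98 and 1.76 CPM it is among the lowest members. That call was lost without tcESC replicate 2 (adjusted p = 0.0536), without tc;Sf1ESC replicate 2 (adjusted p = 0.0544) and in a test against a 2-fold change (adjusted p = 0.390), all by edgeR. Under the fold limit, 6 members passed the adjusted p higher and 8 lower, where 16.7% of all genes passed it higher and 16% lower at any fold. Ezh1 had the highest log2 fold change, 0.81 (adjusted p = 0.00154), and after Phf19 the lowest was that of Jarid2, -0.79 (adjusted p = 0.00142). Ezh2 had -0.55 (adjusted p = 0.00191), Rybp -0.57 (adjusted p = 0.00203) and Aebp2 -0.40 (adjusted p = 0.00239), and all of these lie on chromosome 6, whose median was -0.31 in this comparison.

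The wider set of Polycomb partners held 28 genes, of which 27 were tested. In SCLCs against tcESCs 3 were higher and 7 lower, and in todPGCLCs against tcESCs 3 were higher and 2 lower, and 4 were lower without tcESC replicate 1 or without todPGCLC replicate 2. Of all genes tested, 24.3% were called higher and 18.3% lower in SCLCs against tcESCs, and 18.1% and 11.2% in todPGCLCs against tcESCs. None of the partners was called in tc;Sf1ESCs against tcESCs by edgeR or DESeq2 (4 higher and 8 lower at an unadjusted p under 0.05 and any fold). In that comparison 6.04% of all genes were called higher and 5.63% lower. Sfmbt2, an MBT-domain protein of the Polycomb group, had 36.1 and 37.6 CPM in tcESCs, 478 and 549 in SCLCs and 204 and 236 in todPGCLCs (SCLCs against tcESCs, log2 fold change 3.80, SE 0.0870, adjusted p = 1.45e-07). Epop, a partner of the PRC2 form with Polycomb-like proteins, fell from 988 and 1012 CPM in tcESCs to 189.7 and 323 in SCLCs (log2 fold change -1.96, SE 0.217, adjusted p = 0.000141). Usp7, a deubiquitinase found in PRC1 variants, fell from 1248 and 1198 CPM to 303 and 327 (log2 fold change -1.95, SE 0.0677, adjusted p = 6.72e-07).

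Of 32 developmental genes known to carry H3K27me3 in ESCs, 22 had enough counts to be tested. A gene silent in tcESCs passes that filter only through a group where it is high, so the counts describe those 22 and no more. In SCLCs against tcESCs 18 were higher and 4 lower, where 24.3% of all genes were called higher and 18.3% lower. Gata6 stood at 0.197 and 0.813 CPM in tcESCs and 188 and 197 in SCLCs, and Foxa2 at 0.197 and 0.455 against 63.5 and 53.6. Olig2, a neural regulator, went the other way, from 91.0 and 92.5 CPM to 0.431 and 0.108. In todPGCLCs against tcESCs 11 were higher and 4 lower, where 18.1% of all genes were called higher and 11.2% lower. Wt1 stood at 0.592 and 0.618 CPM in tcESCs and 11.5 and 10.5 in todPGCLCs. In tc;Sf1ESCs against tcESCs 6 were higher and 2 lower, but the higher count was 2 without tcESC replicate 1 and without tc;Sf1ESC replicate 1 or 2, and 3 by DESeq2. Of all genes, 6.04% were called higher and 5.63% lower in tc;Sf1ESCs against tcESCs. H3K27me3 was not measured in these cells, so no target gene can be tied to a subunit here.

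The 14 germline genes taken here as known to be silenced by PRC1.6 in ESCs were all tested. In tc;Sf1ESCs against tcESCs 10 were lower (6 in a test against a 2-fold change) and none was higher by edgeR or DESeq2 or at an unadjusted p under 0.05 (0 genes), where 5.63% of all genes were lower. Taf7l had 7.69 and 9.04 CPM in tcESCs and 0.428 and 0.476 in tc;Sf1ESCs (log2 fold change -4.20, SE 0.262, adjusted p = 0.000116). Smc1b, a meiotic cohesin gene, had 27.6 and 25.8 against 2.60 and 2.42 CPM (log2 fold change -3.41, SE 0.429, adjusted p = 0.00145). Of the PRC1.6 members in that comparison, L3mbtl2 had a log2 fold change of 0.11, Mga -0.28, Pcgf6 0.10 and E2f6 -0.74, and none was called. In SCLCs against tcESCs 5 of the germline genes were higher and 2 lower, where 3 were higher without SCLC replicate 1, and in todPGCLCs against tcESCs 8 were higher and 1 lower, or 2 lower without todPGCLC replicate 1. In SCLCs against tc;Sf1ESCs, their parent clone, 11 were higher and 1 lower, or 0 lower without SCLC replicate 2.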

How the data were processed

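The authors trimmed reads with Trim Galore, aligned them to GRCm38 with STAR 2.4.0 and deposited raw counts of reads per gene from HTSeq, 1 table per library, with no normalization (Picard and DESeq2 are also named in the submitters' processing notes). The strand setting is not given in the sources used here. Of all counted reads, 35.6% to 41.6% stood in 5 rows that name no gene, among them 20.5% to 27.5% not unique and 2.96% to 3.14% ambiguous, and these rows were left out, so a gene with a close paralogue or pseudogene may have lost reads. Of 46078 gene IDs, 45229 were named with GENCODE M21.

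The fits used edgeR 4.0.16 and limma 3.58.1 under R 4.3.3, and DESeq2 1.42.0 served as an alternative. Genes with a mean count above 10 were fitted after TMM normalization with the quasi-likelihood test, in 6 libraries (todPGCLCs left out) for the comparisons among the other groups and in all 8 libraries for those with todPGCLCs. Each SE given is the size of the log2 fold change divided by the square root of the F statistic of that test. The labels number the 2 libraries of each group as replicates and do not say that they came from separate cultures, so p-values measure only the spread between these libraries, which may be technical. The study's reporting summary states that its experiments were all replicated biologically, without naming the RNA-sequencing libraries. The floor of 3 counts covers counting error alone, because reads carried no molecular identifiers. The sort of todPGCLCs is described with different surface markers in different places of the study.

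The members, roles and gene lists were chosen with earlier results of these data known. Every member called in at least 1 comparison was named with its values, the others by their range, and from each list at most the 3 largest called genes in each direction with a mean of at least 1 CPM, where 1 gene that the rule would name is not reported here. Alternatives were RLE size factors, library totals alone, filterByExpr, no filter beyond 1 count in all, DESeq2, a test against a 2-fold change, an adjusted p limit of 0.01, only the 4 libraries compared, all 8 libraries, the replicate number as a block, each library left out, the longest transcript as gene length and, added later, a limit relative to the chromosome median.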

Additional observations from a re-analysis of the deposited data

How the results depend on the processing

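Of 49 calls of members over the 5 comparisons, 41 were kept in every alternative, 8 were lost in at least 1 and none reversed, while 10 of 126 uncalled values gained a call in at least 1. The calls lost were those of Phf19 in tc;Sf1ESCs, Ezh2, Ring1 and Rybp in SCLCs against tcESCs, Cbx2 in SCLCs against tc;Sf1ESCs, Aebp2 in todPGCLCs, and Pcgf2 and Cbx2 in SCLCs against todPGCLCs. A test against a 2-fold change lost 7 of these, all but Cbx2 in SCLCs against todPGCLCs, which left no member lower in tc;Sf1ESCs against tcESCs (0 in place of 1). With each library left out in turn, the members called higher and lower ranged from 0 to 0 and 0 to 1 in tc;Sf1ESCs against tcESCs, 6 to 6 and 10 to 13 in SCLCs against tcESCs, 5 to 6 and 5 to 7 in SCLCs against tc;Sf1ESCs, 5 to 6 and 2 to 5 in todPGCLCs against tcESCs, and 4 to 4 and 7 to 8 in SCLCs against todPGCLCs, with the 5 lower in todPGCLCs reached without tcESC replicate 2. A lone library is then assumed to vary like the other groups. Library totals alone moved the median of all genes to 0.11 in todPGCLCs against tcESCs and -0.15 in SCLCs against todPGCLCs, with 5 higher and 2 lower and 4 higher and 9 lower. RLE size factors, DESeq2 and an adjusted p limit of 0.01 left each count of members unchanged. A limit relative to the chromosome median, chosen after seeing the data, gave 7 higher and 9 lower in SCLCs against tcESCs and 4 higher and 6 lower in SCLCs against todPGCLCs. Replicate numbers as a block gave 6 higher and 11 lower in SCLCs against tcESCs, as without the block, and changed no count in the other comparisons. Deviations of same-numbered libraries correlated at -0.0307 to 0.0737, so they showed no marked effect shared by number. With 2 libraries a group, this cannot show whether same-numbered libraries were made together. Shares of paralogues are given per library, so leaving a library out gives no other value. The lowest count of a member in any library was 48.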

Other observations

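Of 15 genes that act against Polycomb marks, among them H2A deubiquitinase subunits and H3K27 demethylases, 1 was called lower and none higher in SCLCs against tcESCs by edgeR or DESeq2 (5 were higher at an unadjusted p under 0.05 and any fold), where 18.3% of all genes were called lower and 24.3% higher. In todPGCLCs against tcESCs none was called by edgeR or DESeq2 (2 higher and 8 lower at an unadjusted p under 0.05 and any fold), though 1 was lower without tcESC replicate 2 or without todPGCLC replicate 2. Of all genes, 18.1% were called higher and 11.2% lower in todPGCLCs against tcESCs. The gene of the list called in SCLCs was Asxl3, a subunit of the H2A deubiquitinase, at 7.26 and 6.44 CPM in tcESCs, 10.5 and 11.9 in tc;Sf1ESCs, 0.627 and 0.683 in SCLCs and 3.25 and 3.75 in todPGCLCs (log2 fold change -3.37, SE 0.207, adjusted p = 7.51e-06 in SCLCs against tcESCs). In SCLCs against tc;Sf1ESCs 1 was higher, or 2 without tc;Sf1ESC replicate 2 or without SCLC replicate 2, and 1 lower. The higher gene was Kmt2c, an H3K4 methyltransferase (log2 fold change 1.15, SE 0.0618, adjusted p = 4.06e-06 by edgeR), and the lower gene was Asxl3 (log2 fold change -4.08, SE 0.205, adjusted p = 2.99e-06 by edgeR). Between SCLCs and todPGCLCs 1 gene was called higher in SCLCs and 2 lower. Kdm6b, an H3K27 demethylase, was higher in SCLCs (141 and 150.3 against 73.3 and 68.7 CPM, log2 fold change 1.04, SE 0.0868, adjusted p = 9.43e-06 by edgeR), and no gene of the list was called higher without SCLC replicate 2, without todPGCLC replicate 2, with library totals alone or in a test against a 2-fold change. Asxl3 was lower in SCLCs (log2 fold change -2.41, SE 0.226, adjusted p = 1.89e-05 by edgeR), and so was Foxk2, a forkhead transcription factor (68.0 and 69.0 against 148 and 142 CPM, log2 fold change -1.08, SE 0.0619, adjusted p = 1.08e-06 by edgeR), where 1 of the 2 lower calls was left in a test against a 2-fold change or relative to the chromosome median.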
